A study of Saccharomyces cerevisiae with 12 samples.

Results

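The genes described here are 34 proteasome genes of budding yeast: the 14 subunits of the 20S core particle, 18 subunits of the 19S regulatory particle, the core assembly factor *UMP1* and *RPN4*, which encodes their transcriptional activator. *SEM1*, which encodes a small lid component, is not among them and is described with other genes of the pathway. The 34 genes were chosen by the function of their products, not by their values, though earlier results of these data were known at the time. They are among 6612 coding features quantified in the RNA-seq libraries of a study that mapped dihydrouridine. This is a reduced form of uridine that dihydrouridine synthases (DUS enzymes) make in RNA. WT was the laboratory strain BY4741, and DUS KO was the quadruple mutant *dus1Δ dus2Δ dus3Δ dus4Δ*, obtained from a cross of double mutants by tetrad dissection. Each strain gave 3 libraries of poly(A)-selected RNA prepared alongside D-seq but without the borohydride step that makes reverse transcriptase stop at dihydrouridine. The comparison of DUS KO with WT asks how far RNA levels differ between yeast with and without these enzymes.

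The proteasome is the large protease that degrades ubiquitin-tagged proteins in the cytoplasm and nucleus. Its 20S core is a barrel in which outer rings of alpha subunits gate the entrance and inner rings of beta subunits carry the peptidase sites, and its 19S particle, made of a base with an ATPase ring and a lid, recognises, unfolds and feeds in the substrate. In yeast, Rpn4 binds a promoter element called PACE (proteasome-associated control element) upstream of most of these genes and is itself a very short-lived substrate of the proteasome, which forms a feedback loop on proteasome supply.

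All 34 genes had estimated counts within 0.001 of a whole number in every library and passed the filter on low counts. The 6 libraries held 656162 to 5652837 estimated counts, the lowest being DUS KO replicate 3, in which the members' counts ranged from 9 to 170, against 47 to 1591 in the other libraries. The labels do not say whether replicates came from separate cultures, so p-values measure the spread between these samples, which may be technical. Counts of the deleted genes were 0 in every DUS KO library for *DUS1* and *DUS4* and 0, 0 and 3 for *DUS2*, while *DUS3* kept 64, 52 and 6 counts against 129, 82 and 112 in WT. *LYS2*, a lysine biosynthesis gene often used as a strain marker (YBR115C), also had 148, 330 and 86 counts in WT but 2, 0 and 1 in DUS KO, so the strains differed in the RNA of a gene other than the DUS genes, and effects of the DUS deletions and of other differences between the strains cannot be told apart in any comparison below. Of genes that mark mating type *a*, all 6 listed had a higher mean in DUS KO at an unadjusted p under 0.05 (3.33% of all features in that direction), none passed the adjusted threshold, the libraries of 2 of them (*STE2* and *AGA2*) overlapped between strains, and their summed level was 468 to 1086 TPM (a length-normalized share of the library's transcripts) in WT and 2136 to 2686 TPM in DUS KO. The 4 genes of the opposite mating type summed to 6.60 to 8.98 TPM in WT and 3.71 to 7.06 TPM in DUS KO, with *MF(ALPHA)1* at 0 counts in 5 of 6 libraries, and the part of mating-type genes in the results below was not tested.

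The PACE element, GGTGGCAAA, was searched on both strands in a window from 250 bases before to 50 bases after the annotated start of each gene, which in this annotation is the start codon. An exact match was present for 27 of the 34 proteasome genes (79.4%) and for 72 of 6020 protein-coding genes (1.20%), so that 37.5% of all genes with a match were proteasome genes. It was present for 6 of 7 alpha subunit genes (*PRE5* had none), 6 of 7 beta subunit genes (*PUP1* had none), 6 of 6 ATPase genes, 2 of 4 other base genes (*RPN10* and *RPN13* had none) and 7 of 8 lid genes (*RPN8* had none). Neither *UMP1* nor *RPN4* itself held a match in this window. Because the element was already known from the promoters of these genes, the high share among them is a description and not a test. The following windows, read from the R64 reference genome 5′ to 3′ along the strand that carries the motif, show the element in capitals with 10 bases of flank, for the genes whose values are given below because they had the most or least RNA in their subcomplex, had the largest differences between strains or had libraries that did not overlap between strains (*RPN2*).
PRE6: tttcccttccGGTGGCAAAagaatcttcg
PRE8: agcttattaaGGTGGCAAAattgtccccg
PUP3: tggcactgccGGTGGCAAAaaagtgcaaa
PRE3: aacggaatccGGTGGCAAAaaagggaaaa
PRE1: aaatctttacGGTGGCAAAaaataaagaa
RPT6: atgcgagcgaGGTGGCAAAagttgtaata
RPT2: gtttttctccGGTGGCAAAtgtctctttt
RPT3: ctgaaagtaaGGTGGCAAAatagtaaatc
RPN1: tgtgttttacGGTGGCAAAaggcgagcac
RPN2: atttattttcGGTGGCAAAactggataca
RPN6: tggttccaagGGTGGCAAAtgttggtaga
RPN7: atcctcaatgGGTGGCAAActtaacttat
RPN12: aatttcaatgGGTGGCAAAtaatgtgtag

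In R64 these windows lie at chrXV:255218-255246 on the minus strand (*PRE6*), chrXIII:86841-86869 on the minus strand (*PRE8*), chrV:349511-349539 on the minus strand (*PUP3*), chrX:435035-435063 on the plus strand (*PRE3*) and chrV:177683-177711 on the plus strand (*PRE1*). For the ATPase genes they lie at chrVII:411352-411380 on the minus strand (*RPT6*), chrIV:437906-437934 on the plus strand (*RPT2*) and chrIV:1261495-1261523 on the plus strand (*RPT3*). For the remaining genes they lie at chrVIII:164838-164866 (*RPN1*), chrIX:220801-220829 (*RPN2*), chrIV:286790-286818 (*RPN6*), chrXVI:742290-742318 (*RPN7*) and chrVI:252398-252426 (*RPN12*), all on the minus strand. All 13 windows lie upstream of the coding sequence.

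Each of the 27 genes had a single match, 19 on the coding strand and 8 on the opposite strand, the latter including *PRE6*, *RPN7* and *RPN12*. The distance from the end of the motif to the start codon ranged from 75 bases at *RPT6* to 174 bases at *PUP3*, with a median of 111. The base after the motif was A or T in 26 of 27 genes and A in 18 of them, *RPN7* with a C being the exception. The 7-base core GGTGGCA gave the same count of 27 members, against 173 of 6020 genes (2.87%), and reaching back 500 bases, an alternative chosen after seeing the data, also gave 27 members, against 103 of 6019 genes (1.71%). Both of these searches contain the first, so neither could give fewer than 27 members. All of these are matches of letters and do not show binding.

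**Figure D1:**
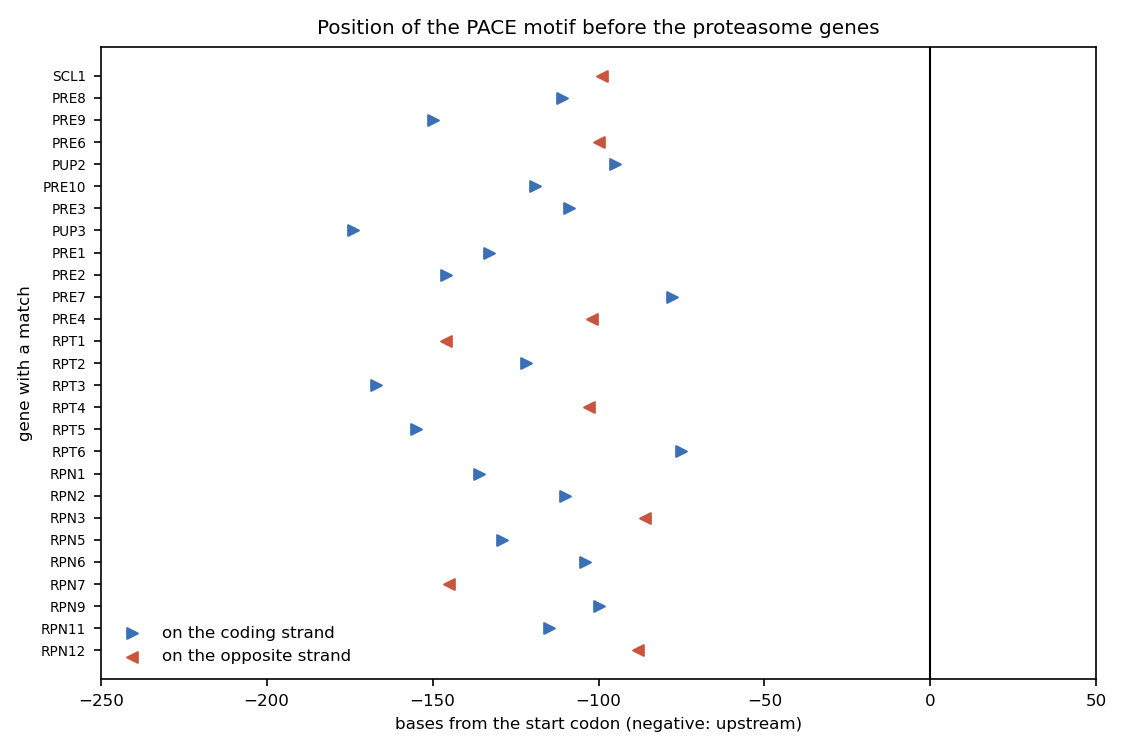
Position of the PACE motif relative to the start codon (x axis, bases, negative upstream) for the 27 proteasome genes with a match, 1 row a gene, with arrowheads pointing right for the coding strand and left for the opposite strand. All matches fall between 75 and 174 bases before the start codon.

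RNA levels of the subunits were not equal, although the assembled particle holds its core subunits in equal number. On the TPM scale, which is per length and so allows genes to be compared, the mean over the 6 libraries ran from 118.9 TPM for *PUP3* (± 20.8 SD, n = 6 libraries) to 3.80 TPM for *RPN4* (± 1.04). The median of the core genes, though not every gene, stood above that of the regulatory particle genes in every library. By the mean over the 6 libraries *PRE1* of the 20S had 8.68 TPM and *RPN10* of the 19S had 47.5 TPM. *SEM1*, a lid gene outside the 19S genes listed here, had 228 TPM. The median of the 14 20S genes was 39.2, 41.9 and 39.6 TPM in WT replicates 1 to 3 and 51.0, 38.2 and 39.4 TPM in DUS KO replicates 1 to 3. The median of the 18 19S genes was 12.9, 13.3 and 14.4 TPM in WT and 18.98, 16.3 and 15.6 TPM in DUS KO. The ratio of the 20S to the 19S median was therefore 3.03, 3.14 and 2.75 in the WT libraries. In the DUS KO libraries it was 2.69, 2.35 and 2.53, the highest of these lying below the lowest WT value. The margin was small, and a difference in this ratio between strains was not tested.

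Coding length moved with level. The 20S genes span 597 to 867 coding bases and the 19S genes 471 to 2982, and across the 32 subunit genes Spearman's rho between TPM and coding length ran from -0.69 to -0.56 over the 6 libraries, against -0.64 to -0.56 across all 5884 features tested. Within the 14 core genes rho was 0.06 to 0.12, and within the 18 regulatory particle genes -0.72 to -0.45. The genes of a library share its depth and length normalization, so these coefficients are given as a description, and the part of length in the difference between particles was not tested. Among 19S genes of core-like length, *RPN10* (807 bases), which encodes a ubiquitin receptor, had 47.5 TPM, while *RPN12* (825 bases), which encodes a lid subunit, had 12.9 TPM.

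Within the alpha ring, *PRE6* had the highest level, with 93.3, 75.7 and 68.6 TPM in the WT libraries and 104, 89.2 and 101 TPM in the DUS KO libraries. *PRE8* had the lowest mean of the ring, with 16.4, 17.2 and 18.6 TPM in WT and 19.5, 22.1 and 39.0 TPM in DUS KO. *PRE6* was above *PRE8* in every library, and the high *PRE8* value came from the shallow DUS KO replicate 3. The other 5 alpha subunit genes lay between them, with means of 24.2 TPM (*PRE10*) to 49.0 TPM (*PUP2*).

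By the mean over all 6 libraries, the beta ring held both the highest level among the 34 members and the lowest level among the core genes. *PUP3*, a structural beta subunit gene, had 133, 129.9 and 133 TPM in WT and 127, 109.7 and 80.4 TPM in DUS KO. *PRE1*, also structural, had 5.85, 8.65 and 10.8 TPM in WT and 11.5, 7.92 and 7.30 TPM in DUS KO, so that *PUP3* was far above *PRE1* in every library. *PUP3* was not the highest member throughout, since the mean of *PRE3* in DUS KO was 118 TPM against 106 TPM for *PUP3*. The genes of the 3 peptidase subunits had mean levels of 93.9 TPM for *PRE3* (caspase-like site), 72.8 TPM for *PRE2* (chymotrypsin-like site) and 55.4 TPM for *PUP1* (trypsin-like site).

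The 6 ATPase genes were the most even group, with mean levels from 13.9 TPM for *RPT3* to 18.0 TPM for *RPT6*. *RPT6* had 16.4, 18.0 and 17.0 TPM in WT and 21.96, 19.7 and 15.1 TPM in DUS KO. *RPT3* had 11.4, 15.7 and 14.5 TPM in WT and 18.4, 16.0 and 7.46 TPM in DUS KO. *RPT6* was above *RPT3* in every library, although their ranges over the 6 libraries overlapped.

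The other base genes were the least even group of the regulatory particle. *RPN10* had 45.0, 41.5 and 41.1 TPM in WT and 63.4, 49.2 and 44.9 TPM in DUS KO, and *RPN13*, the gene of another ubiquitin receptor, had a mean of 23.0 TPM. *RPN1*, which encodes a large scaffold that docks ubiquitin-binding factors, had 3.50, 3.39 and 6.07 TPM in WT and 6.38, 5.83 and 5.37 TPM in DUS KO. *RPN10* exceeded *RPN1* in every library.

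In the lid, *RPN8*, whose product pairs with the deubiquitinase Rpn11, had 17.4, 14.6 and 16.5 TPM in WT and 23.6, 17.9 and 29.6 TPM in DUS KO. *RPN7*, a structural lid gene, had 6.15, 4.04 and 5.03 TPM in WT and 7.33, 7.88 and 10.6 TPM in DUS KO. DUS KO replicate 3 was the highest library for both genes, and *RPN8* was above *RPN7* in all 6. The remaining lid genes had means of 8.06 TPM (*RPN5*) to 18.7 TPM (*RPN11*).

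In the order of mean level, none of the 33 pairs of neighbours had ranges that were apart over the 6 libraries. In 6 pairs the lower gene was below the upper in every library, namely *PRE2* below *PRE6*, *PUP1* below *PRE2*, *PRE9* below *PRE4*, *SCL1* below *PRE5*, *PRE10* below *UMP1* and *RPN4* below *RPN1*. In the other 27 pairs the order turned in at least 1 library.

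**Figure D2:**
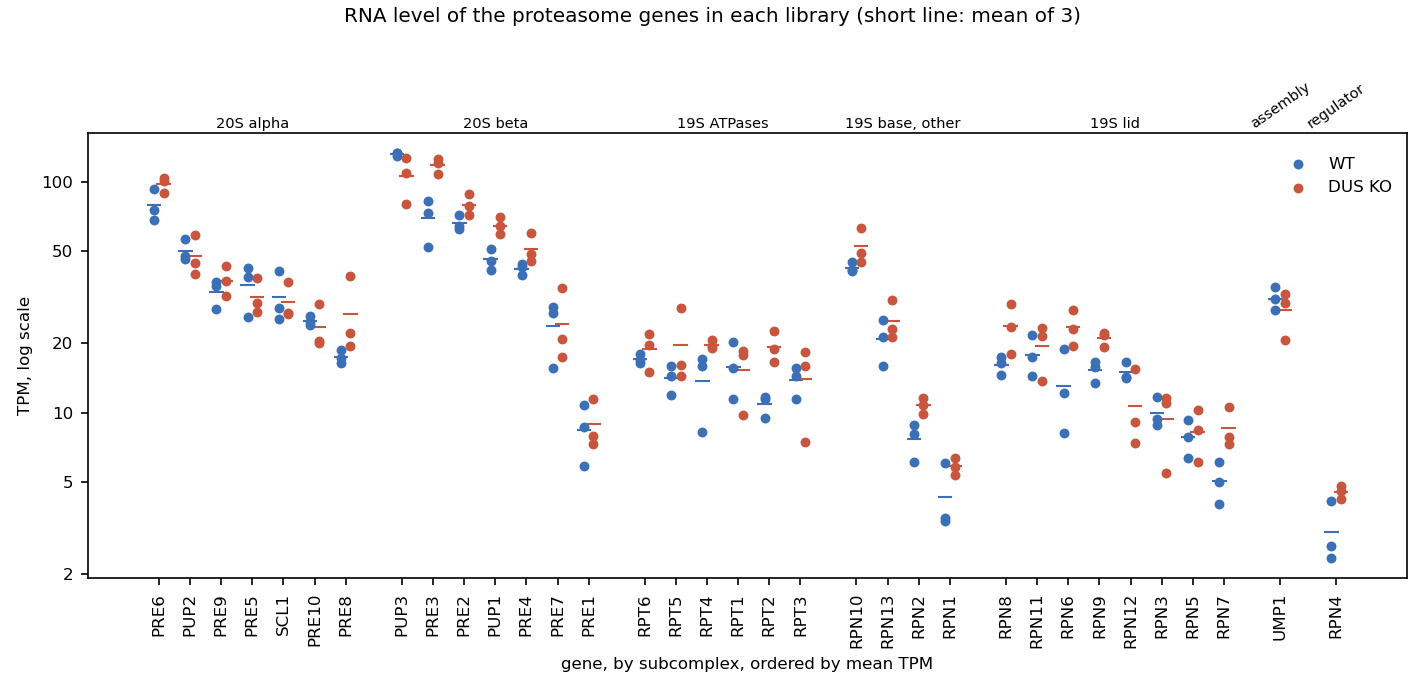
RNA level (y axis, TPM, log scale) of the 34 genes in each library, grouped by subcomplex and ordered by mean level, with WT and DUS KO libraries as separate points and a short line at the mean of 3. The 20S genes reach 133 TPM (*PUP3*) while the ATPase genes lie close together and *RPN4* lies lowest, at 2.35 to 4.83 TPM.

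None of the 34 proteasome genes differed between DUS KO and WT at an adjusted p under 0.05 in the quasi-likelihood test of edgeR, with p-values adjusted over all features by the Benjamini-Hochberg method. Over all 5884 features tested the share called was 0.085%, 5 features that were all lower in DUS KO, namely *DUS1*, *DUS2*, *DUS4*, *LYS2* and *PHO12*. At an unadjusted p under 0.05 there were 4 proteasome genes (11.8%, against 8.26% of all features). Of these, 2 were higher in DUS KO, *PRE3* and *RPT2* (3.33% of all features), and 2 were lower, *PUP3* and *RPN12* (4.93% of all features). DESeq2 gave 3 members at that unadjusted p (8.14% of all features), 1 higher and 2 lower in DUS KO. With limma-voom there were 5 (10.1%), 1 higher and 4 lower, and neither method called any. On the log2(TPM + 1) scale limma gave 5 members, all higher in DUS KO (12.9% of all features in either direction). *PUP3* and *RPN12* were not among these 5, so the split by direction turned with the method and scale. The count of 4 became 1 without WT replicate 2 (7.81% of all features) and 1 without DUS KO replicate 2 (5.34%). It was 7 without WT replicate 3 (11.5%) and 3 without the shallow DUS KO replicate 3 (5.93%).

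The members' log2 fold changes, DUS KO over WT on the count scale, ran from -0.77 to 0.56 with a median of -0.04, against a median of -0.02 over all features, and 13 of the 34 were above 0. With scaling by total counts alone the split was 20 above and 14 below 0, and on the log2(TPM + 1) scale it was 24 and 10, settings that moved the median of all features to 0.16 and 0.22 and that of the members to 0.15 and 0.26. The direction of a difference near 0 therefore turned with the scaling, and changes are given relative to the TMM-scaled counts. The precision was better than for most features: the median standard error was 0.25, and the 95% interval of the fold change lay within 2-fold either way for 25 members (73.5%), against 33.1% of all features. In bulk samples such as these, a difference in cell makeup and a difference in RNA per cell cannot be told apart.

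Normalized values below are CPM, the counts scaled to a common library size with TMM factors, which equalize the bulk of genes between libraries. *PRE3*, the gene of the caspase-like subunit (YJL001W, chrX:435163-435926, plus strand, 2 coding exons), measured 179.6, 136 and 185 CPM in WT replicates 1 to 3 and 217, 226 and 253 CPM in DUS KO replicates 1 to 3. Every DUS KO library was above every WT library. The means were 167 ± 27.1 and 232 ± 18.4 CPM (SD, n = 3 each), a 1.38-fold difference with a log2 fold change of 0.47 (SE 0.19, 95% interval 0.06 to 0.88, edgeR, Benjamini-Hochberg adjusted p = 0.538).

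*RPT2*, the gene of an ATPase that takes part in opening the core's gate (YDL007W, chrIV:438047-439360, plus strand), measured 61.2, 52.4 and 54.5 CPM in WT and 72.0, 73.8 and 96.6 CPM in DUS KO. The groups did not overlap, and the shallow DUS KO replicate 3 was the highest. The log2 fold change was 0.51 (SE 0.22, 95% interval 0.02 to 0.99, edgeR, Benjamini-Hochberg adjusted p = 0.584).

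*PUP3* (YER094C, chrV:348729-349346, minus strand), the structural beta subunit gene with the highest mean TPM, measured 309, 321 and 282 CPM in WT and 216, 218 and 153 CPM in DUS KO. All 3 DUS KO libraries lay below all 3 WT libraries, with the lowest value in replicate 3, where it rested on 103 counts. The means were 304 ± 19.7 and 196 ± 37.0 CPM (SD, n = 3 each), and the log2 fold change of -0.62 (SE 0.19, 95% interval -1.03 to -0.21) had the smallest p among the members (edgeR, Benjamini-Hochberg adjusted p = 0.364). It was at an unadjusted p under 0.05 in 16 of 19 alternative settings, *PRE3* in 15, *RPN12* in 12 and *RPT2* in 8. *RPN6*, which did not reach that p in the edgeR fit, also did so in 8. *PUP3*, *PRE3*, *RPN12* and *RPT2* were picked at that p in the edgeR fit of these libraries, so their tallies are not independent support. The lowest adjusted p of any of these genes in any setting was 0.0714, for *PUP3* with DESeq2.

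*RPN12* (YFR052W, chrVI:252505-253329, plus strand), whose product is a lid subunit that joins late in lid assembly, measured 44.9, 56.3 and 41.7 CPM in WT and 36.2, 24.8 and 19.3 CPM in DUS KO. The groups did not overlap on this scale, whereas on the TPM scale they did, at 14.1 to 16.6 TPM in WT and 7.40 to 15.5 TPM in DUS KO. The DUS KO value of replicate 3 rested on 13 counts. Its log2 fold change of -0.77 (SE 0.30, 95% interval -1.42 to -0.13, edgeR, Benjamini-Hochberg adjusted p = 0.523) was the lowest of the 34 genes.

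*RPN2* (YIL075C, chrIX:217863-220700, minus strand), which encodes the scaffold of the base that holds Rpn13, had groups that did not overlap but a small difference. It measured 93.7, 75.0 and 93.1 CPM in WT and 98.3, 97.6 and 102.5 CPM in DUS KO, and the log2 fold change was 0.19 (SE 0.20, edgeR, Benjamini-Hochberg adjusted p = 0.867). Counting by this criterion alone, the libraries of 3 members (*PRE3*, *RPT2* and *RPN2*) were all higher in DUS KO, against 7.83% of all features, and those of 2 members (*PUP3* and *RPN12*) were all lower, against 7.68% of all features. Together these are 5 of 34 genes, against 15.5% of all features in either direction.

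The highest log2 fold change belonged to *RPN6* (YDL097C, chrIV:285391-286695, minus strand), whose product clamps the lid to the core. It measured 42.4, 67.4 and 89.7 CPM in WT and 73.6, 123 and 98.0 CPM in DUS KO. The groups overlapped, WT replicate 3 lying above DUS KO replicate 1, and the log2 fold change of 0.56 had an SE of 0.29 (95% interval -0.07 to 1.19, edgeR, Benjamini-Hochberg adjusted p = 0.634).

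The alpha ring had the lowest median of the subcomplexes, a log2 fold change of -0.39. Of its 7 genes 6 were below 0, against 3034 of 5884 features tested, and none was at an unadjusted p under 0.05. *PRE5* (YMR314W, chrXIII:901709-902413, plus strand), the alpha gene without a PACE match, had the lowest value of the ring, with 104, 120.4 and 63.9 CPM in WT and 58.7, 62.5 and 84.7 CPM in DUS KO. Its groups overlapped, WT replicate 3 being low and DUS KO replicate 3 high, and the log2 fold change was -0.51 (SE 0.27, edgeR, Benjamini-Hochberg adjusted p = 0.634). The other alpha genes below 0 were *PRE10* (-0.44), *SCL1* (-0.42), *PUP2* (-0.39), *PRE9* (-0.15) and *PRE6* (-0.01), while *PRE8* was at 0.27. The ring's median stayed below 0 in all 19 alternative settings, from -0.47 to -0.05, the latter on the TPM scale, where 4 of the 7 genes were below 0. The ring was singled out by its median in these same libraries, so the kept direction is not independent support.

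The beta ring had a median of -0.05, with 5 of 7 genes below 0. Besides *PRE3* and *PUP3*, its log2 fold changes ran from -0.28 (*PRE7*) to 0.17 (*PUP1*), and the gene of the chymotrypsin-like subunit, *PRE2*, was at -0.05. The 20S genes together had a median of -0.18 (3 above and 11 below 0) and the 19S genes one of 0.06 (9 above and 9 below 0). On the log2(TPM + 1) scale the medians were 0.26 for the beta ring, with 6 genes above 0, and 0.34 for the 19S genes, with 14 above 0. Without DUS KO replicate 1 the median of the 19S genes on the count scale was -0.11, with 8 above and 10 below 0.

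Within the 19S particle the ATPase genes had a median log2 fold change of 0.01 (3 above and 3 below 0), with *RPT1* lowest at -0.32. The 4 other base genes lay between -0.03 (*RPN13*) and 0.19 (*RPN2*), a narrower range than in any other subcomplex of more than 1 gene. The lid genes had the widest range, from *RPN12* at -0.77 to *RPN6* at 0.56, and a median of -0.04 with 4 above and 4 below 0. *RPN11*, the gene of the deubiquitinase that removes ubiquitin chains before degradation, was at -0.20 (edgeR, Benjamini-Hochberg adjusted p = 0.891).

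**Figure D3:**
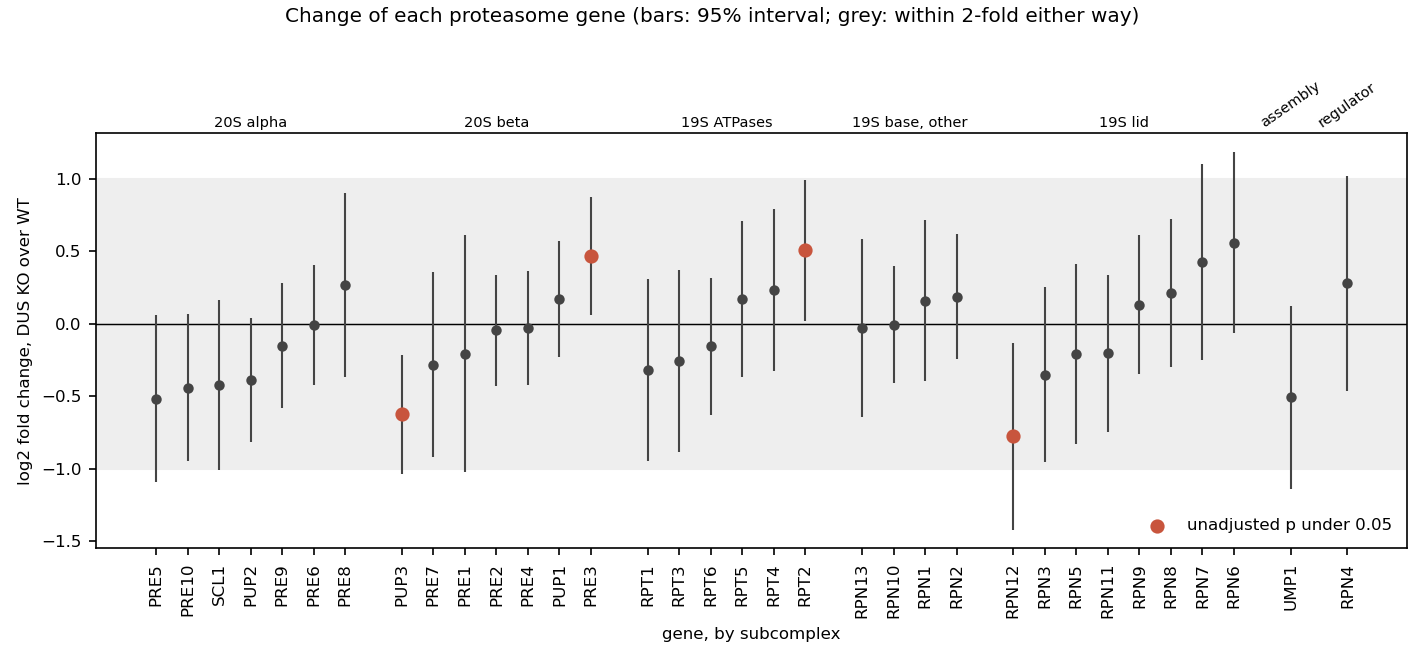
Log2 fold change of each proteasome gene (y axis, DUS KO over WT, TMM-scaled counts, n = 3 libraries each) with its 95% interval, grouped by subcomplex and ordered by value within it, with the band of 2-fold either way shaded. The 4 genes at an unadjusted p under 0.05, *PUP3*, *PRE3*, *RPT2* and *RPN12*, are the only ones whose interval leaves out 0.

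*UMP1* (YBR173C, chrII:581726-582172, minus strand), whose product is a chaperone of core maturation and becomes the first substrate of the finished core, measured 56.1, 53.2 and 41.0 CPM in WT and 24.4, 41.2 and 43.1 CPM in DUS KO. The low value of DUS KO replicate 1 stood apart from the other 2 DUS KO libraries, which lay close to WT replicate 3. The log2 fold change was -0.51 (SE 0.29, 95% interval -1.14 to 0.13, edgeR, Benjamini-Hochberg adjusted p = 0.687).

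*RPN4* (YDL020C, chrIV:415113-416708, minus strand) had 74, 79 and 108 counts in WT and 117, 78 and 17 counts in DUS KO. These correspond to 16.9, 15.9 and 24.2 CPM in WT and 19.7, 25.1 and 25.3 CPM in DUS KO. The groups overlapped through WT replicate 3, which was above DUS KO replicate 1. The means were 19.04 ± 4.52 and 23.4 ± 3.17 CPM (SD, n = 3 each), with a log2 fold change of 0.28 (SE 0.34, edgeR, Benjamini-Hochberg adjusted p = 0.893), and the 95% interval of -0.46 to 1.02 reaches from a decrease to a 2-fold increase. RNA levels say nothing of the amount of Rpn4 protein, which was not measured here.

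**Figure D4:**
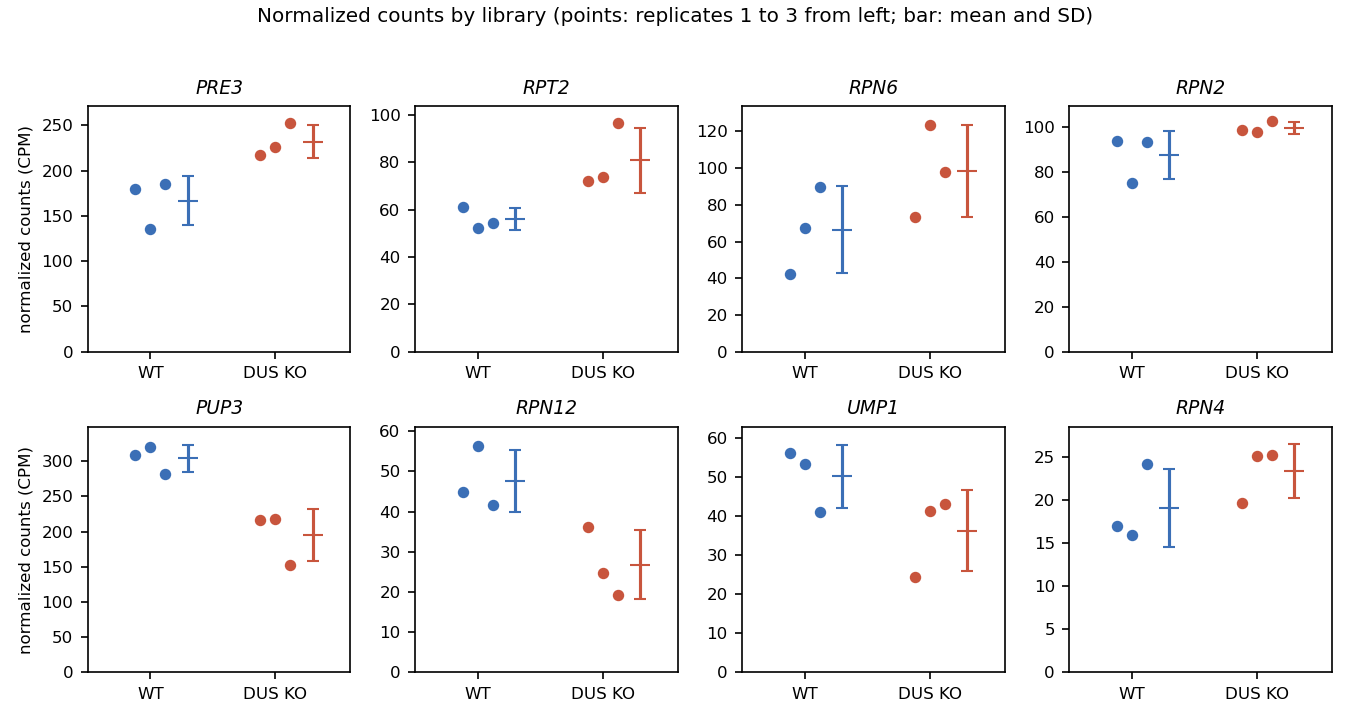
Normalized counts (y axis, CPM of the TMM-scaled library, starting at 0 and scaled for each gene) of 8 proteasome genes in each library, replicates 1 to 3 from left to right, with the mean and SD of 3 beside them. The groups are apart for *PRE3*, *RPT2*, *RPN2*, *PUP3* and *RPN12* and overlap for *RPN6*, *UMP1* and *RPN4*.

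Members with and without an exact PACE match in the window covered overlapping ranges of change. The 27 genes with a match had a median log2 fold change of -0.15, 10 of them above 0, with a range from -0.77 to 0.56. The 7 genes without one had a median of -0.01, 3 of them above 0, with a range from -0.51 to 0.28. All 4 members at an unadjusted p under 0.05 held the motif, in both directions, and the medians were not compared by a test.

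Of 35 other genes of the pathway none was called, and 3 were at an unadjusted p under 0.05 (8.57%, against 8.26% of all features). The groups of 4 did not overlap and were higher in DUS KO, *POC4*, *ECM29*, *NAS2* and *RPN14* (7.83% of all features). Those of 2 were lower, *DSK2* and *HSF1* (7.68% of all features). The log2 fold change was 1.00 for *NAS2* and 0.84 for *RPN14*. In the list of assembly chaperones and proteasome-bound factors, 11 of 13 genes were above 0, with a median of 0.24, against 2850 of 5884 features above 0 and a median of -0.02. *POC4*, the gene of a chaperone of alpha ring assembly, measured 103.8, 96.6 and 96.0 CPM in WT and 118, 130.1 and 147 CPM in DUS KO. Its groups were apart, with a log2 fold change of 0.41 (edgeR, Benjamini-Hochberg adjusted p = 0.602). *ECM29*, whose product tethers the core to the regulatory particle and whose promoter window also held PACE, measured 35.3, 12.3 and 32.1 CPM in WT and 52.9, 46.1 and 44.6 CPM in DUS KO. Its groups were apart as well, WT replicate 2 being low, with a log2 fold change of 0.86 (edgeR, Benjamini-Hochberg adjusted p = 0.562).

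*SEM1*, which encodes a small lid component and is counted in that list, had more RNA per length than any of the 34 members, at 269, 237 and 202 TPM in WT and 228, 222 and 209 TPM in DUS KO. Its coding sequence has 270 bases and its groups overlapped on the TPM scale. On TMM-scaled counts they overlapped too, with a log2 fold change of -0.415 (SE 0.20, edgeR, Benjamini-Hochberg adjusted p = 0.617). The 7 genes for regulators and turnover of Rpn4 had a median log2 fold change of 0.17 (4 above and 3 below 0) with none at an unadjusted p under 0.05, among them *UBR2*, the ubiquitin ligase of Rpn4, at 0.55 (SE 0.46) and *HSF1*, the heat shock factor, at -0.36 (SE 0.24). The 15 genes for ubiquitin supply and substrate delivery had a median of -0.28 with 9 below 0. Of these *DSK2*, which encodes a shuttle that carries ubiquitinated proteins to the proteasome, measured 72.4, 89.9 and 76.3 CPM in WT and 54.2, 41.9 and 65.4 CPM in DUS KO, with groups apart and a log2 fold change of -0.59 (edgeR, Benjamini-Hochberg adjusted p = 0.538). The windows of 5 of these 35 genes (14.3%) held PACE, namely *ECM29*, *YAP1*, *UBA1*, *UBI4* and *CDC48*.

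**Figure D5:**
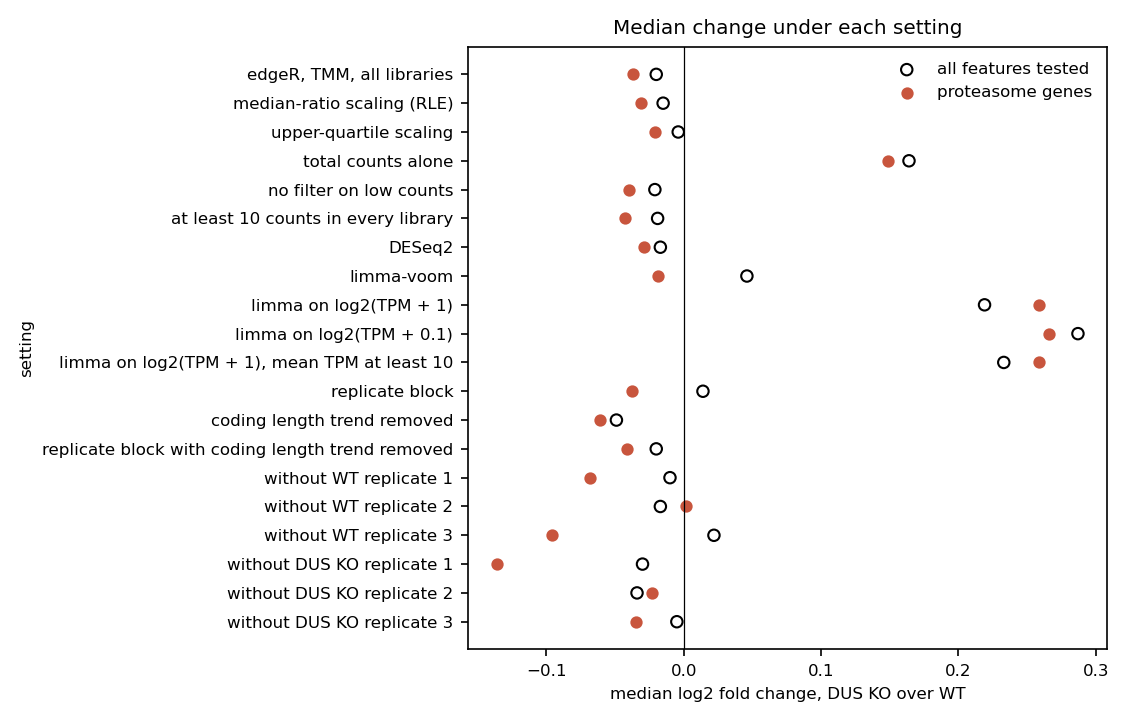
Median log2 fold change (x axis, DUS KO over WT) of the proteasome genes (filled points) and of all features tested (open circles) under each processing setting (y axis). The members' median is -0.04 with edgeR and TMM, 0.15 with total counts alone (all features 0.16), 0.26 on the log2(TPM + 1) scale (all features 0.22) and -0.14 without DUS KO replicate 1 (all features -0.03).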

How the data were processed

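RNA-seq was available for 3 WT and 3 DUS KO libraries, and the 6 D-seq libraries were not used here. For their sequencing in general, the authors trimmed adapters, collapsed duplicates by molecular identifier and aligned reads to sacCer3 (the R64 sequence), which is not described separately for RNA-seq. They deposited 1 table a library with estimated counts and TPM for 6612 coding features. Which program gave the counts and TPM is not named in the methods or labels. The deposited estimated counts were rounded, and 728 features with low counts were removed with filterByExpr. DUS KO was compared with WT in edgeR 4.0.16 (R 4.3.3, TMM scaling, robust quasi-likelihood test, Benjamini-Hochberg adjustment over 5884 features, threshold 0.05), with no replicate block. The standard error is the log2 fold change divided by the root of F. The deposited TPM values were used to compare levels between genes. Alternatives were other scalings and filters, DESeq2 1.42.0, limma 3.58.1 (voom, and log2 TPM with a pseudocount of 1 or 0.1), a replicate block, removal of the trend with coding length, and leaving out each library. The code was tested on simulated counts. Motif matches were exact, and gene positions came from the RefSeq annotation of R64, whose coding lengths equal those of the files for all 34 members. Members and gene lists were chosen with earlier results of these data known. Values in every library are given for *RPN4*, *UMP1*, members at an unadjusted p under 0.05, members whose groups did not overlap, the 3 highest and 3 lowest log2 fold changes, and the highest and lowest mean TPM of each subcomplex. Of the other pathway genes those at an unadjusted p under 0.05 were named by rule, and *SEM1*, *UBR2*, *HSF1*, *NAS2* and *RPN14* were named after their values were seen. Library totals of estimated counts were 4759874, 5652837 and 4336794 for WT and 5500084, 2856581 and 656162 for DUS KO, so a member's value in DUS KO replicate 3 carries the largest counting error.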

Additional observations from a re-analysis of the deposited data

How the results depend on the processing

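No proteasome gene was called in any of the 19 alternatives, DESeq2 giving no adjusted p for 3 of them and for 3878 features in all. The number of features called, 5 with edgeR and TMM, was 3 with total counts alone, 1 with at least 10 counts in every library, 58 with DESeq2, 0 with limma-voom (594 at an unadjusted p under 0.05), 10 with limma on log2(TPM + 1), 29 with that scale and a mean TPM of at least 10, and 8 with the coding length trend removed, and it ranged from 1 to 12 when a library was left out. Same-numbered libraries did not deviate together (correlations of deviations of 0.03, -0.04 and -0.07). This cannot show whether they were prepared together, and the labels do not state a pairing. With the replicate block 3 features were called, and with the block and the length trend removed 9, with no member among them. Members at an unadjusted p under 0.05 numbered 1 to 7 when a library was left out, against 4.79% to 11.5% of all features. The other pathway genes at that p, 3 in the edgeR fit, numbered 6 with limma on log2(TPM + 1) (12.9% of all features). They numbered 6 with log2(TPM + 0.1) (12.1%) and 0 to 6 when a library was left out, against the same 4.79% to 11.5%. Members with groups that did not overlap numbered 5 on TMM-scaled counts (15.5% of all features in either direction) and 9 with total counts alone (17.9%). They numbered 14 with log2(TPM + 1), 13 of them higher (20.6% of all features in either direction). With a mean TPM of at least 10 they numbered 11 of 27 (25% of all features). When a library was left out they numbered 6 to 13, against 23% to 29.3% of all features. This count was not computed for limma-voom, the fits with a block or log2(TPM + 0.1). The members' median log2 fold change was 0.15 with total counts alone, 0.26 with log2(TPM + 1), 0.27 with log2(TPM + 0.1) and 0.26 with a mean TPM of at least 10, and ran from -0.14 to 0.00 when a library was left out. Each of the 12 genes whose fold change was followed singly kept its direction in every alternative that gave a value, *RPN4* from 0.16 to 0.60. Apart from *RPN4* and *UMP1*, these genes were picked for their values in the edgeR fit of the same libraries. The kept direction is therefore not independent support, and *POC4*, *ECM29* and *DSK2* among them are not members. DUS KO replicate 3 was shallow and each group had 3 libraries, and the 95% interval of a member reached a median of 0.55 on the log2 scale to either side of its fold change. The causes of the moves between settings were not tested.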
